A study of Homo sapiens with 16 samples.

Results

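JAK3 and the receptors of the common gamma chain cytokines were followed here in HL-60 cells given lipoteichoic acid (LTA), a cell wall glycolipid of Staphylococcus aureus that is sensed through TLR2. The genes are JAK3, IL2RG, IL2RA, IL7R, IL4R, IL21R, IL15RA and the ligand gene IL15, 8 of the 23575 gene symbols in the count table, and they were chosen by name. JAK3 and IL7R had drawn attention through their change with LTA at 24 h in these same libraries, so the 24 h values are given as a description with no test. HL-60 is a human promyelocytic leukaemia line, and each of the 16 libraries comes from this 1 line. The 12 libraries of differentiated, neutrophil-like cells (dHL-60) form 6 groups of 2: untreated, 1 µg/ml LTA and 10 µg/ml LTA, each at 4 and at 24 h. The 4 libraries of undifferentiated cells (uHL-60) form 4 groups of 1: untreated and 1 µg/ml LTA, each at 4 and at 24 h. The agent used for differentiation and its duration are not given in the sources used here. The dHL-60 duplicates are not labelled as separate cultures, so each p-value below reflects only the spread of these samples, and that spread may be technical.

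The common gamma chain, γc, is encoded by IL2RG and is shared by the receptors for IL-2, IL-4, IL-7, IL-9, IL-15 and IL-21. Each receptor adds its own chain, and the kinase JAK3 binds γc while JAK1 binds the partner chain. Ligand binding brings the kinases together, and they phosphorylate STAT proteins such as STAT5, STAT3 and STAT6, which switch on target genes that include the feedback inhibitors CISH and SOCS1. The family is best known from lymphocytes, where loss of IL2RG or JAK3 causes severe combined immunodeficiency. Neutrophils carry γc and the receptors for IL-4 and IL-15.

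Library totals ran from 9653374 to 20157081 gene counts. Levels are CPM, gene counts brought to a common library size with TMM factors over all 16 libraries, and changes are log2 fold changes ± SE. The summed level of 4 neutrophil markers (ITGAM, CSF3R, FPR1, CYBB) was 754 to 2640 CPM in dHL-60 and 184 to 207 CPM in uHL-60, while 5 promyelocyte granule genes (MPO, ELANE, PRTN3, AZU1, CTSG) summed to 4800 to 22200 CPM in dHL-60 and 23400 to 26100 CPM in uHL-60. Because γc receptors mark lymphocytes, lymphocyte markers were read as well. The 5 T cell markers summed to 0.299 to 5.06 CPM in untreated dHL-60 and 0.473 to 1.71 CPM in dHL-60 with LTA. Over all 16 libraries the highest count was 51 for CD2 (4.37 CPM), 15 for CD3E, 9 for CD3G and 1 for CD3D and for CD5. The 5 NK cell markers stayed at or under 1.13 CPM in dHL-60 with LTA, and the 5 B cell markers at or under 2.36 CPM. In bulk RNA, fewer cells that express a gene and less RNA per cell cannot be told apart.

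The sequences before the start sites of JAK3, IL2RA and IL7R are shown because IL2RA and IL7R had the largest changes with LTA at 4 h among the 8 genes, and JAK3 the highest level of the 3 at 24 h. Each is the 250 bases before the RefSeq start (GRCh38.p14), read 5′ to 3′ on the gene's own strand, and capitals mark a match to GGGANNTTCC, a form of the NF-κB site searched on both strands. The windows lie at chr19:17847983-17848232 (minus strand), chr10:6062368-6062617 (minus strand) and chr5:35856641-35856890 (plus strand).
JAK3: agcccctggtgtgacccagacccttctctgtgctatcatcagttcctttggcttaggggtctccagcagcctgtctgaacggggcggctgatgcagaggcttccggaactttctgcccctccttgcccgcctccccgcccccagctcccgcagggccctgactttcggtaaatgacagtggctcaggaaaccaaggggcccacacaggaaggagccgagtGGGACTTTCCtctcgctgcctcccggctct
IL2RA: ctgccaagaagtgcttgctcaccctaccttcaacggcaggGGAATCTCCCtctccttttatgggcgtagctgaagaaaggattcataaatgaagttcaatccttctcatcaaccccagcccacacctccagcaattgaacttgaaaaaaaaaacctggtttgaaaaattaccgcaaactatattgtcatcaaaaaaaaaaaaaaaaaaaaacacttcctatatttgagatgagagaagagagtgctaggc
IL7R: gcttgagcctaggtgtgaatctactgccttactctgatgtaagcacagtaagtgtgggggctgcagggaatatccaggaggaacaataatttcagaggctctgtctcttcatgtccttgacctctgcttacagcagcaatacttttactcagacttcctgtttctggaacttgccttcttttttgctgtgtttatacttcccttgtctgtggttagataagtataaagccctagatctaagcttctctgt
In the JAK3 window the match sits 30 to 21 bases before the start on the gene's strand. The IL2RA match lies on the other strand, 210 to 201 bases before the start. The IL7R window holds no match to these letters. Windows were found for 7 of the 8 genes, 10 windows in all because IL15RA has several starts, and 2 of the 10 hold GGGANNTTCC, against 1.4% of 35116 promoter windows in the RefSeq table. The STAT-type motif TTCNNNGAA was found in 1 of the 10 windows, for IL15RA, against 6.57% of all windows, and the interferon-type motif GAAANNGAAA in 0, against 3.02%. No match overlapped another motif. A match describes letters and is no evidence of binding.

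In dHL-60, LTA at 4 h was followed by higher RNA of JAK3, of γc and of the private receptor chains tested among the chosen genes. With 1 µg/ml, 7 of the 7 tested genes rose (edgeR quasi-likelihood test, adjusted p under 0.05 over 11866 genes), where 18.7% of all genes tested rose and 20.1% fell. With 10 µg/ml, 7 of 7 rose, against 20.0% of all genes, and 21.3% fell. Both comparisons use the same untreated libraries. IL9R, the private chain for IL-9, is not among the chosen genes and did not rise in the same test. Its change was -1.30 (adjusted p = 0.339) with 1 µg/ml and -1.84 (adjusted p = 0.203) with 10 µg/ml. The IL9R level was low, with a mean of 0.369 CPM in untreated dHL-60 at 4 h. The filter on low counts passed JAK3, IL2RG, IL4R and IL21R on the untreated libraries alone, but not IL2RA, IL7R and IL15RA. IL7R and IL15RA passed in the 12 libraries through their level with LTA, which favours a rise. IL2RA was near the limit of the filter in the untreated 4 h libraries, with 8 and 11 counts. Each of the 4 genes that passed on the untreated libraries rose at both doses. IL15 did not pass and was not tested. Under upper-quartile scaling the median of all genes moved by -0.117 and -0.134 (log2), and the split of called genes moved from 2214 higher and 2380 lower to 1805 and 3077 with 1 µg/ml, and from 2379 and 2524 to 1868 and 3263 with 10 µg/ml. The 7 genes rose under that scaling too. At 4 h the 4 neutrophil markers summed to 1760 to 2000 CPM untreated, 2330 to 2420 CPM with 1 µg/ml and 2160 to 2640 CPM with 10 µg/ml, and 7 macrophage markers to 43.8 to 72 CPM, 10 to 12.2 CPM and 11.3 to 12.4 CPM. Their part in these results was not tested.

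**Figure D1:**
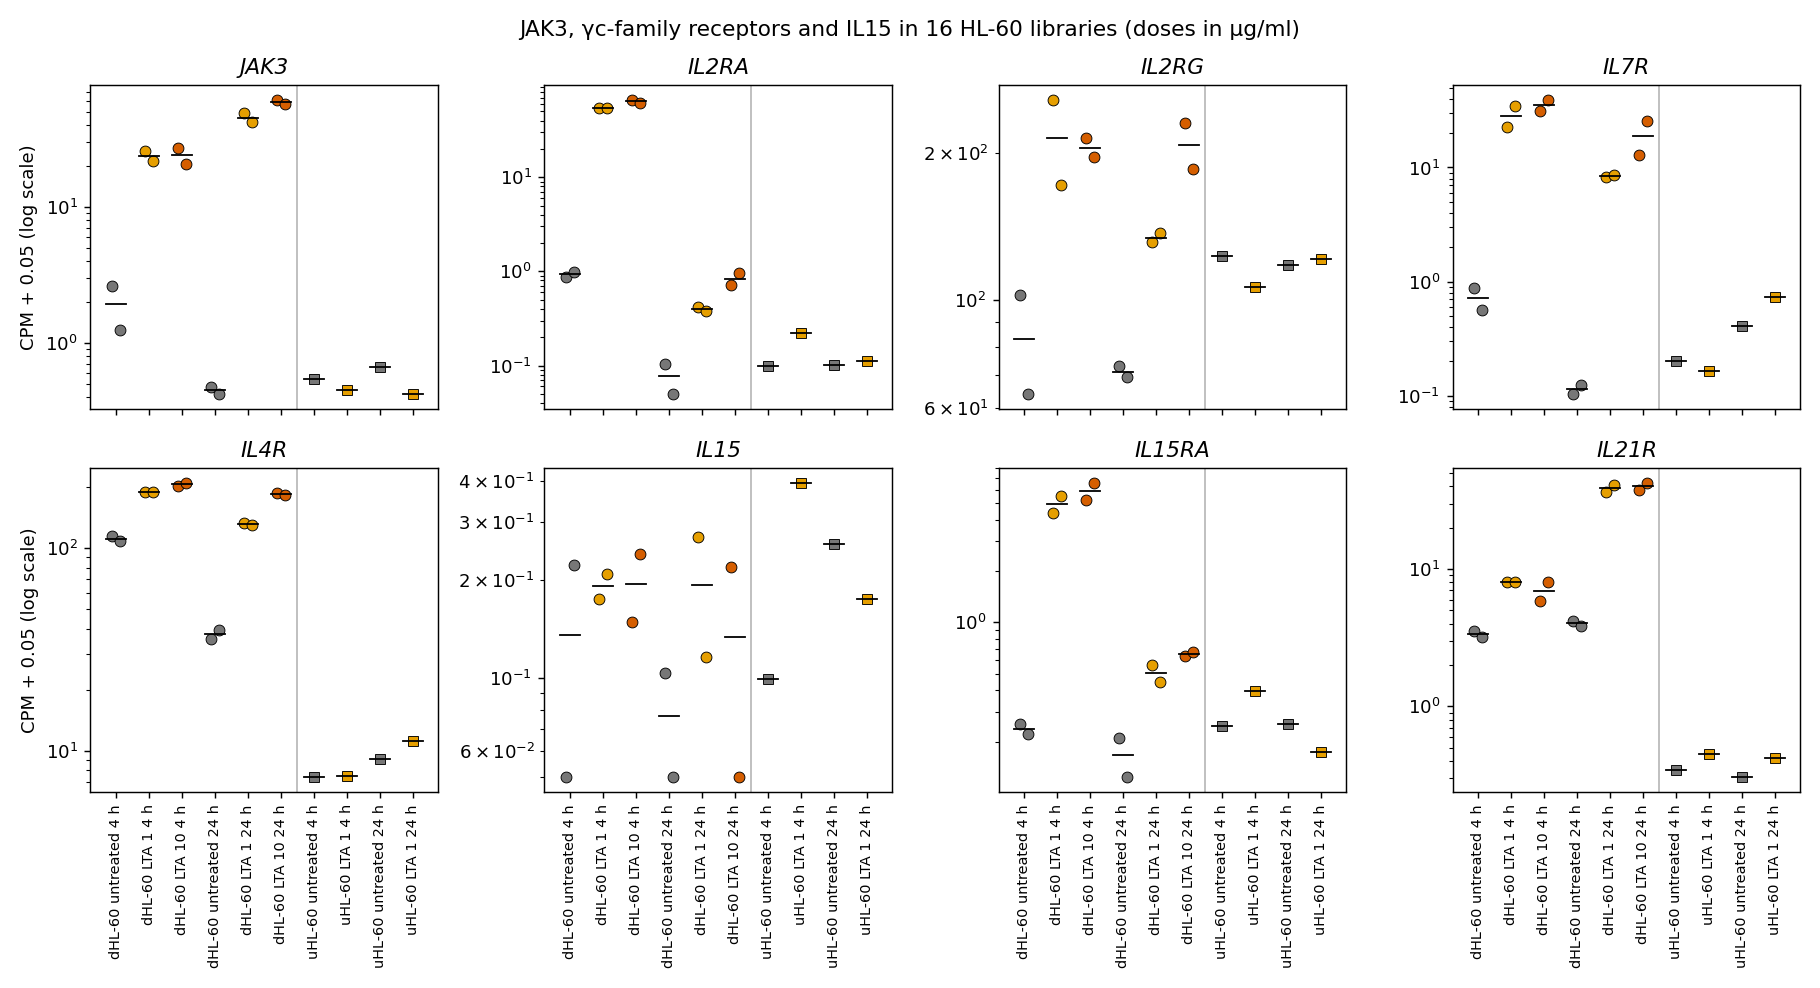
Level of each gene in all 16 libraries, as CPM + 0.05 on a log scale that differs between panels; circles are dHL-60 (2 libraries a group), squares uHL-60 (1 library a group), and bars the group means. JAK3 and IL21R are highest in the dHL-60 groups with LTA at 24 h, whereas IL2RA, IL7R and IL15RA are highest with LTA at 4 h.

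JAK3 (NCBI Gene 3718, chromosome 19, 17824782 to 17847982, minus strand), the kinase bound to γc, stood at 2.57 and 1.2 CPM in untreated dHL-60 at 4 h. With 1 µg/ml LTA the 2 libraries held 25.5 and 21.8 CPM, and with 10 µg/ml 27.0 and 20.6 CPM. All 4 libraries with LTA lay above both untreated ones, and the doses overlapped. The change was 3.67 ± 0.27 (log2 fold change, adjusted p = 3.67e-07) with 1 µg/ml and 3.69 ± 0.27 (adjusted p = 2.94e-07) with 10 µg/ml. Without the first untreated library, the higher of the pair, these were 4.29 and 4.31. At 24 h the untreated libraries held 0.428 and 0.374 CPM. The 24 h libraries with 1 µg/ml held 48.5 and 41.7 CPM, and those with 10 µg/ml 61.1 and 56.7 CPM, the highest of any group. In the order of the 10 group levels only the 4 h groups at 1 and 10 µg/ml, and the untreated dHL-60 group at 24 h with the uHL-60 groups given LTA, overlapped as neighbours. The uHL-60 libraries lay between 0.374 and 0.617 CPM, from 6 to 12 counts each.

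IL2RG (NCBI Gene 3561, chromosome X, 71107404 to 71111577, minus strand) encodes γc itself and was well expressed in every library. Untreated dHL-60 held 102 and 64.1 CPM at 4 h, and the libraries with LTA 257 and 172 CPM at 1 µg/ml and 214 and 196 CPM at 10 µg/ml. The libraries with LTA did not overlap the untreated pair, although the untreated duplicates were themselves spread widely, and the 2 doses overlapped. The rise was 1.37 ± 0.22 (adjusted p = 0.000257) and 1.31 ± 0.22 (adjusted p = 0.000336). At 24 h the levels were 73.1 and 69.3 CPM untreated, 131 and 137 CPM at 1 µg/ml, and 230 and 185 CPM at 10 µg/ml. The groups at 1 µg/ml for 4 h, 10 µg/ml for 24 h and 10 µg/ml for 4 h overlapped as neighbours at the top of the order, and the 2 untreated dHL-60 groups at its foot. An annotated gene on the same strand, AL590764.2, shares 50.83% of the exon bases of IL2RG and is not in the count table, so how its reads were counted is uncertain.

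IL2RA (NCBI Gene 3559, chromosome 10, 6010689 to 6062367, minus strand) encodes CD25, the chain that gives the IL-2 receptor its high affinity. It rose from 0.824 and 0.943 CPM in untreated dHL-60 at 4 h to 54.7 and 53.9 CPM with 1 µg/ml LTA and 66.6 and 61.6 CPM with 10 µg/ml. The changes of 5.92 ± 0.23 (adjusted p = 3.02e-09) and 6.16 ± 0.22 (adjusted p = 1.69e-09) were the largest among the 7 tested genes at both doses. By 24 h it was near the floor again, at 0.0535 and 0 CPM untreated, 0.366 and 0.329 CPM with 1 µg/ml and 0.674 and 0.901 CPM with 10 µg/ml. A library at 0 allows up to 3 counts, and such floors, like the count intervals below, cover only counting error. Its level with 10 µg/ml at 24 h overlapped that of the untreated cells at 4 h.

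IL7R (NCBI Gene 3575, chromosome 5, 35856891 to 35879603, plus strand), the α chain of the IL-7 receptor, held 0.824 and 0.514 CPM untreated at 4 h, 22.5 and 34.5 CPM with 1 µg/ml and 31.4 and 39.3 CPM with 10 µg/ml. It rose by 5.43 ± 0.42 (adjusted p = 5.7e-07) and 5.74 ± 0.42 (adjusted p = 2.94e-07), with no overlap with the untreated pair and overlapping doses. At 24 h the untreated libraries had 0.0535 and 0.0747 CPM, the libraries with 1 µg/ml 8.26 and 8.62 CPM, and those with 10 µg/ml 12.7 and 25.3 CPM. At each dose both 24 h libraries with LTA lay below both 4 h libraries.

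IL4R (NCBI Gene 3566, chromosome 16, 27313756 to 27364778, plus strand), the chain that binds IL-4 and, with IL13RA1, IL-13, started from 114 and 108 CPM in untreated dHL-60 at 4 h. It reached 188 and 189 CPM with 1 µg/ml and 203 and 210 CPM with 10 µg/ml. These pairs were tight and separate, and the rises of 0.76 ± 0.12 (adjusted p = 0.000172) and 0.90 ± 0.12 (adjusted p = 3.91e-05) were the smallest of the 7. At 24 h IL4R stood at 35.7 and 39.5 CPM untreated, 133 and 130 CPM at 1 µg/ml and 186 and 183 CPM at 10 µg/ml. No neighbours in the order of its group levels overlapped.

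IL21R (NCBI Gene 50615, chromosome 16, 27402174 to 27452042, plus strand), the private chain for IL-21, is the nearest neighbour of IL4R, with 37395 bases and 0 protein-coding genes between them. The 4 h libraries held 3.5 and 3.17 CPM untreated, 7.95 and 7.95 CPM with 1 µg/ml, and 5.82 and 7.94 CPM with 10 µg/ml. The rise was 1.25 ± 0.21 (adjusted p = 0.000422) and 1.06 ± 0.22 (adjusted p = 0.00159). At 24 h the untreated pair was little different, at 4.12 and 3.81 CPM, and the pairs with LTA held 36.4 and 41.1 CPM and 37.6 and 42.5 CPM. The 2 doses overlapped at 24 h. IL21R-AS1 on the opposite strand covers 23.29% of the exon bases of IL21R, but its own highest count was 1.

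IL15RA (NCBI Gene 3601, chromosome 10, 5948900 to 5978741, minus strand) encodes the chain that presents IL-15 to other cells and lies 31947 bases from IL2RA with 0 protein-coding genes between. It went from 0.206 and 0.171 CPM untreated to 4.35 and 5.43 CPM with 1 µg/ml and 5.13 and 6.53 CPM with 10 µg/ml at 4 h. The changes were 4.65 ± 0.46 (adjusted p = 4.24e-06) and 4.90 ± 0.45 (adjusted p = 2.06e-06), from 4 counts in the untreated pair. At 24 h it held 0.16 and 0.0747 CPM untreated, 0.512 and 0.395 CPM with 1 µg/ml and 0.589 and 0.624 CPM with 10 µg/ml, so, like IL2RA, it was near the floor. IL15 (NCBI Gene 3600, chromosome 4, 141636583 to 141733987, plus strand), the ligand, had 28 counts in all 16 libraries and at most 6 in any of them, so no change could be measured.

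Compared per kilobase of exon, the genes stood in a different order with LTA than without. In untreated dHL-60 at 4 h IL2RG had 30.0 CPM per kb, IL4R 18.9, IL21R 0.61, JAK3 0.277, IL2RA 0.223, IL7R 0.11 and IL15RA 0.0519. With 1 µg/ml LTA at 4 h IL2RG had 77.7 CPM per kb and IL4R 31.9, followed by IL2RA at 13.7, IL7R at 4.7, JAK3 at 3.47, IL21R at 1.45 and IL15RA at 1.35. With 10 µg/ml at 24 h JAK3 followed IL2RG and IL4R at 8.65 CPM per kb, ahead of IL21R at 7.32, IL7R at 3.14 and IL2RA at 0.199. γc was the most abundant of the 8 genes per kilobase in each of these 3 groups.

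The dose made no detectable difference at 4 h. Of the 7 tested genes 0 were called between 10 and 1 µg/ml, against 0.00843% of all genes higher (1 gene, HBB) and 0% lower. No gene among the 7 had an unadjusted p under 0.05 (smallest 0.114, IL2RA), and DESeq2 also called 0. Of the 11866 genes tested, 216 had an unadjusted p under 0.05. The 95% intervals of the difference (log2, 10 minus 1 µg/ml) ran from -0.42 to 0.45 for JAK3, from -0.07 to 0.56 for IL2RA, from -0.52 to 0.4 for IL2RG and from -0.27 to 0.89 for IL7R. They ran from -0.11 to 0.38 for IL4R, from -0.35 to 0.85 for IL15RA and from -0.62 to 0.22 for IL21R. A missed threshold does not show that the doses act alike, and differences within these intervals would not have been seen.

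At 24 h the distance between LTA and untreated dHL-60 was wider than at 4 h for JAK3, IL4R and IL21R and narrower for IL15RA. These are the values that drew attention to JAK3 and IL7R, and they carry no test. With 1 µg/ml, 6 of 7 genes lay past 2-fold with no overlap between the groups, where 8.46% of all genes lay higher and 3.09% lower by that rule. With 10 µg/ml it was 7 of 7, where 12.9% of all genes lay higher and 7.29% lower. IL2RA, IL7R and IL15RA did not pass the filter on low counts with the untreated libraries alone. Nothing is therefore read from these counts of genes against the shares of all genes. JAK3 differed by 6.78 ± 0.31 and 7.17 ± 0.31 (log2) at the 2 doses, IL21R by 3.30 ± 0.18 and 3.35 ± 0.18, and IL4R by 1.83 ± 0.12 and 2.32 ± 0.12. IL2RG differed by 0.93 ± 0.22 and 1.57 ± 0.22, and only the second passed 2-fold. For IL7R the 244 counts with 1 µg/ml stood against 2 untreated counts, a ratio of 137 after scaling (95% exact binomial interval 37.5 to 1140), and the 516 counts with 10 µg/ml gave a ratio of 320 (88 to 2650). For IL2RA 10 and 21 counts stood against 1, ratios of 11.2 (1.6 to 487) and 26 (4.18 to 1080). IL15RA differed by 1.79 ± 0.63 and 2.23 ± 0.60, and by 2.46 and 2.89 without the first untreated 24 h library. The fitted IL2RA value, which depends on the prior count, went from 3.13 to 5.10 without the first untreated 24 h library and to 2.49 without the second at 1 µg/ml, and from 4.32 to 6.29 and 3.68 at 10 µg/ml.

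**Figure D2:**
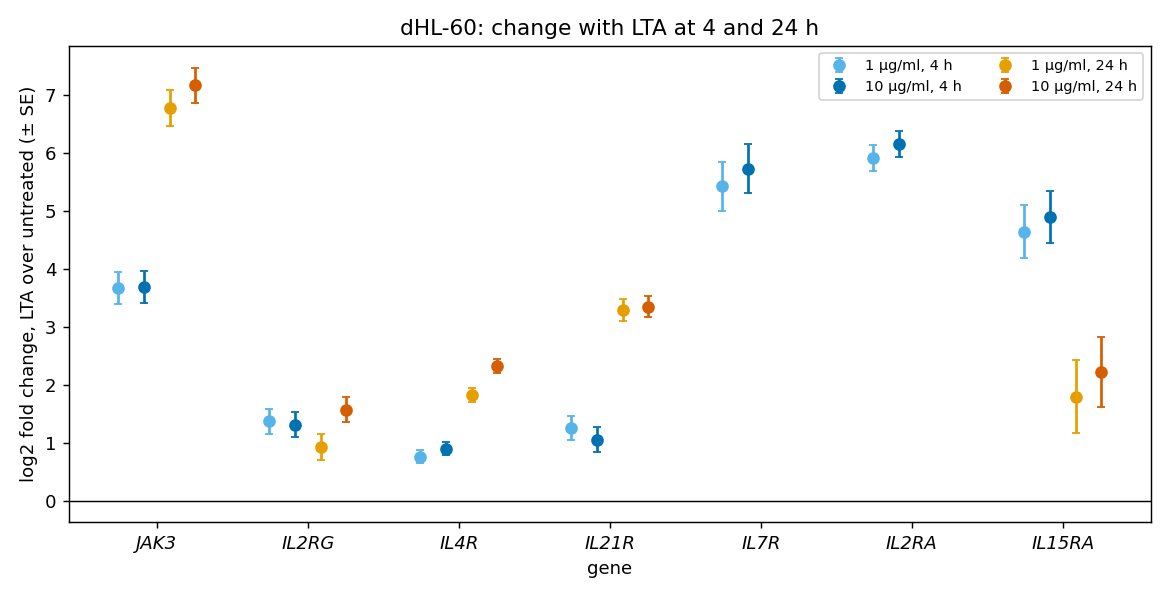
Log2 fold change of LTA over untreated dHL-60 (points, ± SE, 2 libraries a group) for 7 genes at 1 and 10 µg/ml and at 4 and 24 h; the 24 h points of IL7R and IL2RA are left out because they rest on 2 and 1 untreated counts. The JAK3, IL4R and IL21R points are higher at 24 than at 4 h, the IL15RA points lower, and at 4 h the error bars of the 2 doses overlap for each gene.

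The untreated cells themselves differed between the times, with lower JAK3, IL4R, IL2RA and IL7R at 24 h. Between 4 and 24 h without LTA, 4 of 7 genes lay lower past 2-fold with no overlap, where 13.7% of all genes lay lower and 5.21% higher. The untreated 24 h libraries are among those that drew attention to JAK3 and IL7R. IL2RA and IL7R did not pass the filter on low counts with the untreated libraries alone. Nothing is therefore read from the count of 4 against these shares. JAK3 fell by 2.15 ± 0.45 (by 1.52 without the first untreated 4 h library) and IL4R by 1.56 ± 0.12 on the log2 scale. IL2RA was 28.4-fold lower (4.51 to 1180, 1 against 19 counts) and IL7R 10.5-fold lower (2.4 to 94.8, 2 against 14 counts), whereas IL21R differed by 0.26 ± 0.22 and IL2RG by -0.21 ± 0.22. The same untreated libraries also differed in marker genes. The 4 neutrophil markers summed to 1760 to 2000 CPM at 4 h and 754 to 763 CPM at 24 h, and the 5 promyelocyte genes to 8850 to 11800 CPM and 16800 to 22200 CPM. With LTA at 24 h the neutrophil markers summed to 1380 to 1580 CPM at 1 µg/ml and 1870 to 1900 CPM at 10 µg/ml, and the promyelocyte genes to 6230 to 9280 CPM and 4800 to 5910 CPM. The 7 macrophage markers, mostly CSF1R, summed to 23.8 to 24.2 CPM untreated at 24 h, 97.5 to 113 CPM with 1 µg/ml and 122 to 142 CPM with 10 µg/ml. The part of these differences in the 24 h results was not tested.

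With LTA present throughout, the genes split by time. At 1 µg/ml, 1 of 7 genes (IL21R) was higher at 24 than at 4 h past 2-fold without overlap and 3 (IL2RA, IL7R, IL15RA) were lower, where 11.0% of all genes were higher and 13.2% lower. Those 3 are the genes that did not pass the filter with the untreated libraries alone. Nothing is therefore read from their count against the share of all genes. At 10 µg/ml, 2 (JAK3, IL21R) were higher and 2 (IL2RA, IL15RA) lower, where the shares of all genes were 10.5% and 12.3%. IL21R was higher by 2.30 ± 0.18 and 2.56 ± 0.18 (log2) at the 2 doses, and JAK3 by 0.96 ± 0.20 and 1.33 ± 0.20. IL2RA was 154-fold lower by its counts at 1 µg/ml (83.5 to 322, 10 against 1124 counts) and 78.9-fold lower at 10 µg/ml (51.4 to 128, 21 against 1326 counts). IL15RA was 11-fold (6.14 to 21.3) and 9.46-fold lower (5.59 to 17.1). IL7R fell by 1.74 ± 0.29 at 1 µg/ml and by 0.87 ± 0.27 at 10 µg/ml, while IL2RG and IL4R moved by less than 2-fold at either dose. The response at 24 h minus that at 4 h was 3.11 ± 0.49 and 3.48 ± 0.49 for JAK3, 2.04 ± 0.29 and 2.30 ± 0.29 for IL21R, and -2.85 ± 0.98 and -2.67 ± 0.97 for IL15RA. These carry no test because they share the 24 h libraries.

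Between the doses at 24 h most of the genes differed by less than 2-fold. Only IL2RA (1.19 ± 0.41) and IL7R (1.19 ± 0.29) passed 2-fold without overlap, 2 of 7, where 3.41% of all genes lay higher at 10 µg/ml and 1.47% lower. IL2RA rests on 21 against 10 counts (ratio 2.32, 95% exact binomial interval 1.05 to 5.52). Neither gene passed the filter on low counts with the untreated libraries alone, so nothing is read from the count of 2 against these shares. Without the second library of the 10 µg/ml 24 h group that count was 0, and IL7R differed by 0.60. JAK3 (0.39 ± 0.19), IL2RG (0.64 ± 0.21), IL4R (0.50 ± 0.11), IL15RA (0.43 ± 0.48) and IL21R (0.06 ± 0.16) did not pass 2-fold.

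Before any LTA, dHL-60 differed from uHL-60 in the private chains for IL-4 and IL-21. Over the 6 untreated libraries, with time as an additive term, 2 of the 5 tested genes were higher in dHL-60 and 1 lower, where 29.7% of 11884 genes were higher and 28.3% lower. Values at 4 h alone come from a fit of all 16 libraries and set 2 dHL-60 libraries against 1 of uHL-60. IL4R lay between 7.38 and 9.0 CPM in untreated uHL-60 against 35.7 to 114 CPM in untreated dHL-60 and was higher by 2.88 ± 0.40 (adjusted p = 0.000408), and by 3.91 at 4 h alone. IL21R lay at 0.257 and 0.297 CPM against 3.17 to 4.12 CPM and was higher by 3.64 ± 0.44 (adjusted p = 0.000192). IL21R, JAK3 and IL2RA passed the filter on low counts only through their dHL-60 level, which favours a higher level there. Nothing is therefore read from the count of 2 against the share of all genes. IL2RG ran the other way, with 118 and 123 CPM in uHL-60 and 64.1 to 102 CPM in dHL-60 (-0.69 ± 0.20, adjusted p = 0.0177). That call was lost without the second untreated dHL-60 library at 4 h (-0.56, adjusted p = 0.0518) and without the second at 24 h (-0.67, adjusted p = 0.0594). At 4 h alone the IL2RG difference was -0.58. JAK3 did not pass over both times (0.66 ± 0.68, adjusted p = 0.419). At 4 h alone JAK3 was higher in dHL-60 by 1.88 ± 0.50, against 10 counts in the uHL-60 library. At 24 h the untreated dHL-60 pair lay below the uHL-60 library. IL2RA, with 20 counts in the 4 untreated dHL-60 libraries and 2 in the 2 of uHL-60, did not pass (adjusted p = 0.058). At 4 h it held 0.824 and 0.943 CPM in untreated dHL-60 and 0.0495 CPM, from 1 count, in untreated uHL-60. IL7R, IL15RA and IL15 were too low to test. The untreated 24 h libraries are among those that drew attention to JAK3, and any batch that the uHL-60 libraries share cannot be told apart from the cell state.

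In uHL-60 only JAK3, IL2RG and IL4R at 4 h, and these and IL7R at 24 h, had at least 10 counts in 1 library. Of them 0 of 3 and 0 of 4 lay past 2-fold with 1 µg/ml LTA, where 0.958% of genes lay higher and 1.07% lower at 4 h, and 0.947% and 1.22% at 24 h. There is 1 library a group and no test, and the intervals below are 95% exact binomial ones for counting error. JAK3 had 7 counts with LTA and 10 without at 4 h (log2 ratio -0.30, -1.93 to 1.24) and 6 and 12 at 24 h (-0.72, -2.42 to 0.8). IL2RG, with 1843 to 2493 counts a library, had a ratio of -0.22 (-0.31 to -0.13) at 4 h and 0.03 (-0.06 to 0.11) at 24 h. IL4R gave 0.01 (-0.34 to 0.36) and 0.31 (0 to 0.62). IL7R had 11 counts with LTA and 7 without at 24 h (0.93, -0.57 to 2.53). IL2RA, IL15RA, IL21R and IL15 had fewer than 10 counts in each uHL-60 library. Among these, 6 against 1 counts of IL15 (2.8, -0.24 to 8.33) and 3 against 1 of IL2RA (1.8, -1.84 to 7.52) at 4 h lay past 2-fold, with intervals that include 0.

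The 4 h response to 1 µg/ml was larger in dHL-60 than in uHL-60 for JAK3, γc and IL15RA. In a fit of all 16 libraries, with the single uHL-60 libraries taken to vary as the dHL-60 duplicates do, 3 of 7 genes had a larger response in dHL-60, where 5.43% of 12603 genes did and 4.91% had a smaller one. The difference of the responses (dHL-60 minus uHL-60) was 3.96 ± 0.80 for JAK3 (adjusted p = 0.00638), 1.59 ± 0.36 for IL2RG (adjusted p = 0.0129) and 3.88 ± 1.10 for IL15RA (adjusted p = 0.0383). IL15RA entered the test only through its dHL-60 level with LTA, which favours a larger response there. IL7R and IL2RA entered through dHL-60 libraries only, untreated ones among them. The count of 3 is therefore not set against the share of all genes. Without the first untreated dHL-60 library at 4 h the JAK3 difference was 4.62. The IL15RA call was lost without the first or the second untreated dHL-60 library at 4 h (adjusted p = 0.0612 and 0.0723), without the second library at 1 µg/ml (0.0726) and with DESeq2 (0.0794). IL4R differed by 0.75 ± 0.23 and did not pass (adjusted p = 0.0523), but passed with DESeq2's size factors (0.0466) and with DESeq2 (0.0422). IL7R did not pass (adjusted p = 0.0673) on 3 untreated and 2 treated uHL-60 counts. IL7R passed with no filter on low counts (0.00221), with DESeq2 (0.00171) and without the first library at 1 µg/ml (0.0464). IL2RA, on 1 and 3 uHL-60 counts, had an adjusted p of 0.235, and IL21R differed by 0.83 ± 0.71 (adjusted p = 0.6). Upper-quartile scaling moved the median of all genes by -0.105 and the split of called genes from 684 higher and 619 lower to 577 and 799, and DESeq2 gave 821 and 472.

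Other genes of the pathway were read from a list of 32 ligands, receptors, kinases, STATs, inhibitors and targets. In dHL-60, 21 of the 32 could be tested. The 11 others include IL2, IL4, IL9, IL13 and IL21, which had 0 counts in all 12 dHL-60 libraries, IL7 with 2 counts in all and TSLP with 5. IL2RB, the chain that IL-2 and IL-15 need to signal through γc, had 1 count in the 16 libraries, beside the high IL2RA and IL2RG at 4 h. With LTA at 4 h, 13 of the 21 rose and 1 fell at each dose, beside 18.7% of all genes that rose and 20.1% that fell at 1 µg/ml, and 20.0% and 21.3% at 10 µg/ml. Their median change was 0.69 at 1 µg/ml and 0.65 at 10 µg/ml, against -0.04 for all genes at each dose. The feedback inhibitors of JAK kinases led, with SOCS3 at 4.96 ± 0.40 (adjusted p = 6.75e-07) and SOCS1 at 3.91 ± 0.45 (adjusted p = 1.45e-05) for 1 µg/ml. STAT5A, a main STAT of the γc receptors, rose by 2.59 ± 0.18 (adjusted p = 2.76e-07), from 60.5 ± 8.43 to 365 ± 66.4 CPM (SD, n = 2). FCER2, the low-affinity IgE receptor that IL-4 induces in B cells, rose by 2.29 ± 0.33, the survival gene BCL2L1 by 2.25 ± 0.21, and the STAT target kinase PIM1 by 2.22 ± 0.16. JAK1, the partner kinase of JAK3, rose by 0.63 ± 0.13 (adjusted p = 0.00164), and is named here after its value was seen. The gene that fell was STAT6, the STAT of the IL-4 receptor, by 0.45 ± 0.15 (adjusted p = 0.0262) at 1 µg/ml and by 0.41 ± 0.15 (adjusted p = 0.0408) at 10 µg/ml. Between the doses at 4 h 0 of the 21 were called.

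**Figure D3:**
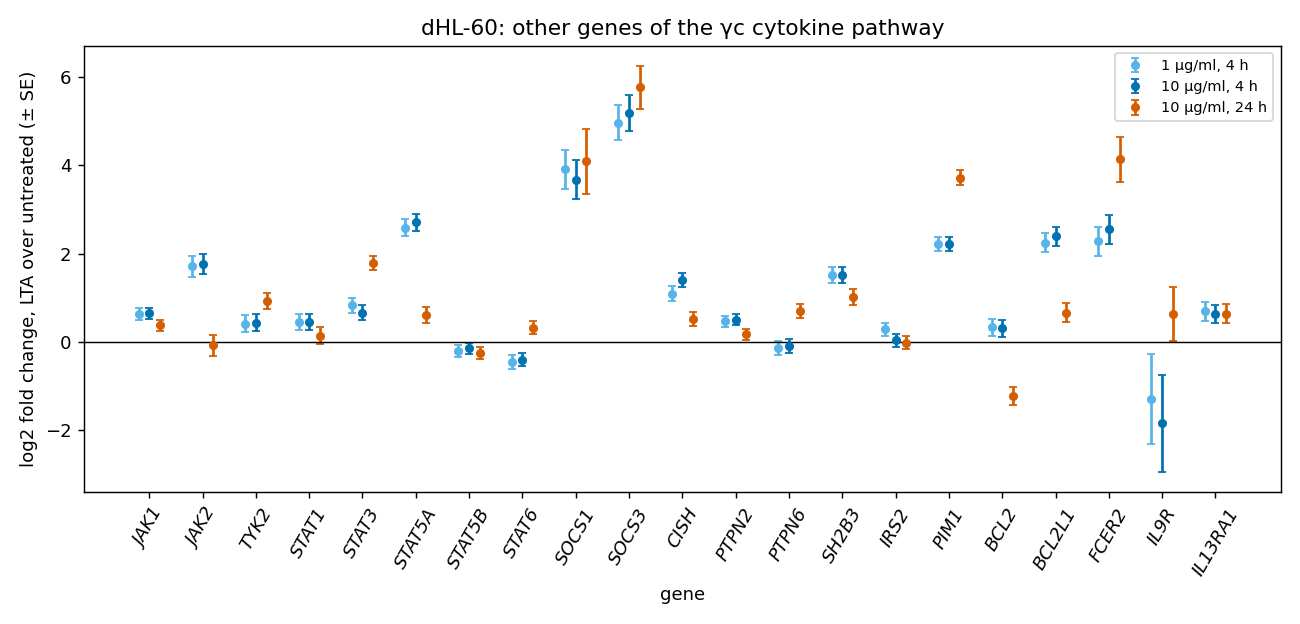
Log2 fold change of LTA over untreated dHL-60 (points, ± SE, 2 libraries a group) for the 21 tested genes of the pathway list, at 1 and 10 µg/ml for 4 h and 10 µg/ml for 24 h. STAT5A, JAK2 and BCL2L1 stand higher at 4 h than at 24 h, SOCS1, SOCS3 and PIM1 are high at both times, and BCL2 lies below 0 at 24 h.

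At 24 h the pathway genes that passed 2-fold with LTA were higher, except BCL2 at 10 µg/ml. Of the 21, 5 lay higher and 0 lower past 2-fold without overlap at 1 µg/ml (8.46% and 3.09% of all genes), and 6 higher and 1 lower at 10 µg/ml (12.9% and 7.29% of all genes). SOCS3 was higher by 4.67 ± 0.49 and 5.77 ± 0.48, PIM1 by 3.13 ± 0.17 and 3.72 ± 0.17, and STAT3 by 1.63 ± 0.17 and 1.79 ± 0.17. BCL2 was lower with 10 µg/ml (-1.22 ± 0.20). STAT5A stood at 26.6 ± 1.93 CPM with 1 µg/ml and 33.9 ± 6.33 CPM with 10 µg/ml, beside 22.6 ± 0.574 CPM untreated (SD, n = 2). Between 4 and 24 h without LTA 8 of the 21 lay lower and 0 higher (13.7% and 5.21% of all genes). Between 4 and 24 h with LTA 9 lay lower and 1 higher at 1 µg/ml (13.2% and 11.0% of all genes), and 7 lower and 1 higher at 10 µg/ml (12.3% and 10.5%). In untreated cells 14 of 21 were higher in dHL-60 than in uHL-60 and 3 lower, beside 29.7% and 28.3% of all genes. SOCS3 and FCER2, among the 14, passed the filter on low counts only through their dHL-60 level, which favours a higher level there. Nothing is therefore read from the count of 14 against the share of all genes. IL13RA1, which pairs with IL4R, was among the higher ones (3.13 ± 0.27, adjusted p = 3.46e-05), and IL9R, the private chain for IL-9, among the lower (-2.68 ± 0.42, adjusted p = 0.000814). The 4 h response was larger in dHL-60 for 8 of 22 and smaller for 0, beside 5.43% and 4.91% of all genes, with STAT5A at 2.33 ± 0.35 (adjusted p = 0.00103) and PIM1 at 2.25 ± 0.32 (adjusted p = 0.000794).

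The genes whose level followed JAK3 most closely across the 12 dHL-60 libraries were SLC2A3, SERPINA1, CES1, ETV5 and IFNAR1. Pearson r of log2 CPM with JAK3 was 0.985 for SLC2A3, a glucose transporter, 0.984 for SERPINA1, the antitrypsin gene, 0.974 for CES1, a carboxylesterase, 0.969 for ETV5, an ETS factor, and 0.967 for IFNAR1, an interferon receptor chain. These were the highest among 9954 genes that reached 5 CPM in a dHL-60 group. The libraries fall into groups that share treatment and time, so r is a description and carries no p. CES1 had the most similar levels, with 0.935 CPM untreated, 22.2 CPM with 1 µg/ml and 30.0 CPM with 10 µg/ml at 4 h, and 0.727, 38.8 and 85.8 CPM at 24 h. SLC2A3 ran over a narrower range, from 84.7 CPM untreated at 24 h to 538 CPM with 10 µg/ml. In the same measure IL7R had an r of 0.916 with JAK3, IL2RG 0.876, IL4R 0.865, IL21R 0.806, IL15RA 0.565 and IL2RA 0.431. In the pathway list PIM1 (0.872) and STAT3 (0.855) were closest.

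**Figure D4:**
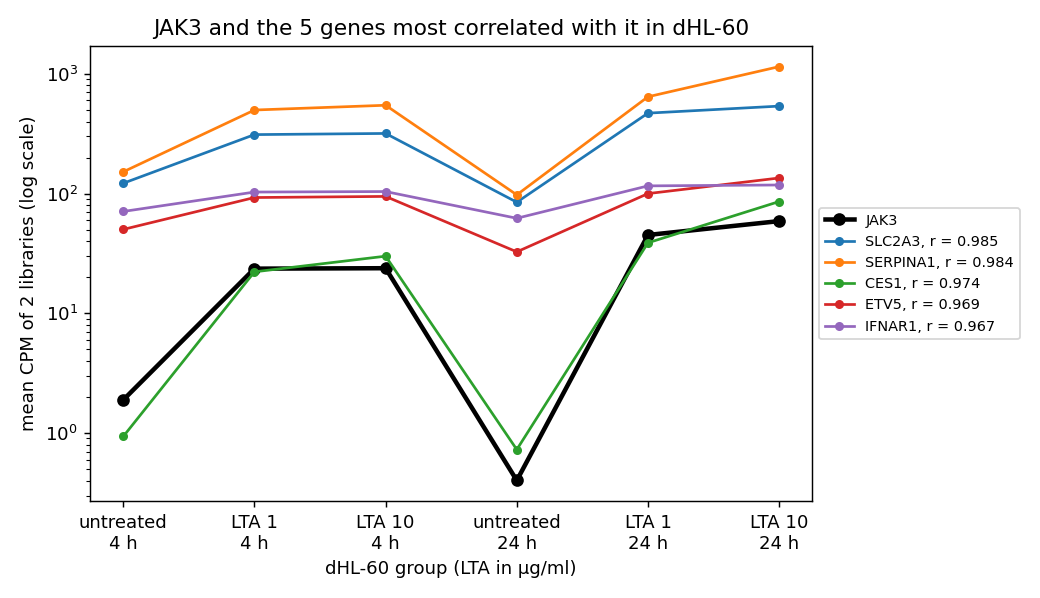
Mean CPM of the 2 libraries in each dHL-60 group (log scale) for JAK3 and the 5 genes with the highest Pearson r with it; lines join groups only to guide the eye. Each gene is lowest in the untreated group at 24 h and highest with 10 µg/ml at 24 h, and JAK3 and CES1 run over the widest range.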

How the data were processed

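RNA was measured in 16 libraries, grouped by their titles. The deposited counts are whole numbers of reads per gene, not normalized, made by the authors from libraries of a stranded mRNA kit. Per the submitters' processing notes, fastp 0.20.0, HISAT2 2.1.0, featureCounts 2.0.1 (Subread), DESeq2 1.28.0, edgeR 3.36.0 and GRCh38 were used, with no role or order given. The annotation and strand setting of the counting are not given in the sources used here, and overlapping and antisense genes are uncertain. Symbols matched RefSeq (GRCh38.p14) for positions and sequences.

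The uHL-60 columns were found to follow a plain character sort of the symbols. They were realigned, which moved 1343 of 23575 symbols and 0 of the 8 genes here. Summed log2 counts were correlated between untreated dHL-60 at 4 h and all 4 uHL-60 libraries. Over the moved symbols the correlation was 0.2444 as deposited and 0.88 realigned, against 0.9352 for the others.

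Tests used edgeR 4.0.16 in R 4.3.3 (quasi-likelihood F test, two-sided) on the deposited counts with TMM, filterByExpr (minimum count 10) and Benjamini-Hochberg adjustment over all genes. Comparisons within dHL-60 came from a fit of its 12 libraries. The SE is the log2 fold change divided by the square root of F, and intervals of the dose difference use the test's degrees of freedom. Where no test is given, a gene counts when it passes 2-fold and its libraries do not overlap. Folds resting on 1 to 3 counts are count ratios with 95% exact binomial intervals. The scripts were tested on simulated data. Duplicates differed by more than sampling noise (chi-square per degree of freedom 10.31 to 18.91) and were kept as separate samples.

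The 8 genes, the pathway list and the marker lists were chosen with earlier results of these data known. A further gene of the neutrophil marker list is not reported here. Any of the 8 could be named in each comparison, and in some not all are given. Also named are up to 6 called pathway genes of largest change, and the 5 genes and 2 pathway genes with the highest correlation to JAK3. The comparisons of 24 with 4 h in LTA and of the responses at 24 and 4 h were added after the data were seen. Alternatives were other scalings, no filter, DESeq2 1.42.0, a replicate block, fewer libraries and each library left out.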

Additional observations from a re-analysis of the deposited data

Results flagged for a closer look

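The response of JAK3 to 1 µg/ml LTA at 4 h was larger in dHL-60 than in uHL-60 by 3.96 (log2, adjusted p = 0.00638, edgeR interaction). Both dHL-60 libraries with LTA lay above both untreated ones, and uHL-60 had 7 counts with LTA against 10 without. For IL2RG, the γc gene, the difference was 1.59 (adjusted p = 0.0129), and the uHL-60 library with LTA lay slightly below its control. For IL15RA it was 3.88 (adjusted p = 0.0383), on 6 against 4 counts in uHL-60. IL15RA passed the filter on low counts only through its level with LTA, and its call was lost without either untreated dHL-60 library at 4 h (adjusted p = 0.0612 and 0.0723), without the second library at 1 µg/ml (0.0726) and with DESeq2 (0.0794). Each of these was picked out because the test of the difference between the cell states passed. Each rests on 1 uHL-60 library a group, and a batch shared by the uHL-60 libraries cannot be told apart from the cell state.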

How the results depend on the processing

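The counts of genes that rose or passed 2-fold stayed within 1.5 times of their value in 98 values over the alternatives run, except that the count of 2 between 10 and 1 µg/ml at 24 h ranged from 0, without the second library of the 10 µg/ml 24 h group, to 2 when libraries were left out. Of the values of single genes under the alternatives, 620 kept their direction and call, 18 untested ones moved by more than the spread between replicates, 7 gained and 7 lost a call, and 4 changed sign. The 4 sign changes all concern the dose difference at 4 h, which was near 0. With 1 library left out it ran from -0.19 (without the first 10 µg/ml library) to 0.196 for JAK3, and was -0.095 without the second 1 µg/ml library. It ran from -0.325 to 0.256 (without the first 1 µg/ml library) for IL2RG, and from -0.447 to 0.001 (without the first 10 µg/ml library) for IL21R. Over all genes, the calls with 10 µg/ml at 4 h fell from 2379 higher and 2524 lower to 1645 and 1536 without the first library at that dose. Between the doses at 4 h, 9 genes higher and 13 lower were called with no filter on low counts, against 1 and 0. The cause was not tested.

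With the replicate number as a block, the members' counts in the dHL-60 comparisons were unchanged, with 7 and 7 genes higher at 4 h, 0 between the doses at 4 h, and 6, 7 and 2 in the 24 h comparisons. The correlation of deviations between same-numbered libraries ran from -0.204 to 0.383 over 15 pairs of groups, so the numbers were not taken to pair the libraries. Depth limits IL15, with 28 counts in all, and the uHL-60 values of IL2RA, IL7R, IL15RA and IL21R.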
